A study of Homo sapiens with 14 samples.

Results

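The mitochondrially encoded genes are the 37 rows, of 59050 gene symbols in the count table, whose symbol begins with MT-. They comprise 13 mRNAs, 2 rRNAs and 22 tRNAs. The rule uses the symbol and no measured value, but the set was chosen with earlier results of these data known. The study followed HUES8, an established wild-type human embryonic stem cell line, as it differentiated in culture into pancreatic progenitors. At each stage it sequenced total RNA depleted of rRNA (RNA libraries) and RNA fragments bound by ribosomes (Ribo libraries, ribosome profiling). The groups were definitive endoderm (DE, 2 libraries per assay), early pancreatic progenitors (PP1, 2 per assay) and late pancreatic progenitors (PP2, 3 per assay), 14 libraries in all. All came from the same unmodified line and are labelled by stage alone. Whether the libraries of a stage came from separate differentiations is not given in the sources used here, so the p-values rest on how these libraries vary, and that variation may be technical. Undifferentiated cells were not analysed here.

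Human mitochondrial DNA is transcribed from both of its strands into long precursors. Most of its mRNAs and both rRNAs are flanked by tRNAs, whose excision by RNase P and RNase Z releases the RNAs between them. The proteins are core subunits of respiratory chain complexes I, III and IV and of the ATP synthase (complex V), and the mitochondrion's own ribosomes make them, while the remaining subunits of these complexes come from nuclear genes. In the pancreas this respiration is best known in beta cells, where ATP made in mitochondria couples glucose to insulin release.

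The RNA libraries held between 15107847 and 21009065 counted reads and the Ribo libraries between 4710335 and 24186949. Markers of each stage were present: the summed level of 8 definitive endoderm markers was 6497 to 6874 CPM (read count scaled to library size) in RNA at DE, 323 to 368 at PP1 and 116 to 254 at PP2. The summed level of 8 pancreatic progenitor markers was 501 to 529, 1119 to 1147 and 393 to 1388 CPM at the same stages, so the PP2 libraries spanned the other stages. PDX1 and NKX6-1, the defining genes of that list, had no reads in the DE RNA libraries. At PP1, PDX1 had 934 and 1119 reads in RNA, but NKX6-1 only 7 and 8. In Ribo, NKX6-1 had 19 and 15 reads at DE and 3 and 4 at PP1. The sum over 4 hepatic markers was 13.8 to 14.6 CPM at DE, 7835 to 8401 at PP1 and 1664 to 4429 at PP2, and the part of such cells in the mitochondrial values was not tested. In such bulk libraries, fewer cells of a type and less RNA per cell cannot be told apart.

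3 of the PP2 libraries stood apart in the mitochondrial RNAs, and many of the changes that rest on them are also given without them. In RNA PP2 replicate 3 the 13 mRNAs had a median of 0.153 of their level in its 2 companions, with 0 of 13 above them, while MT-RNR1 stood 24.3-fold and MT-RNR2 29.5-fold higher. The low pancreatic and the high hepatic end of the PP2 marker sums also belonged to this library: it held 393 CPM of the pancreatic list, against 1388 and 1380 CPM of its companions, and 4429 CPM of the hepatic list, against 1664 and 1921 CPM of its companions. PDX1 was at 42.1 CPM in it, against 212 and 198 CPM, and AFP, a hepatic marker, at 3538 CPM, against 1243 and 1427 CPM; their part in its mitochondrial values was not tested. In the Ribo assay, reads of nuclear protein-coding genes made up 91.5% and 77.5% of PP2 replicates 1 and 3, against 27.1% to 42.6% of the other 5 libraries. These replicates 1 and 3 also held more of the hepatic list, at 5472 and 7472 CPM, against 2079 CPM in PP2 replicate 2. Their sums of the pancreatic list, 817 and 559 CPM, lay on either side of the 726 CPM of replicate 2. Whether these marker differences bear on the mitochondrial values was not tested. The first RNA library at PP1 also held more mitochondrial mRNA than the second, with all 13 higher by a median of 1.95-fold.

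**Figure D1:**
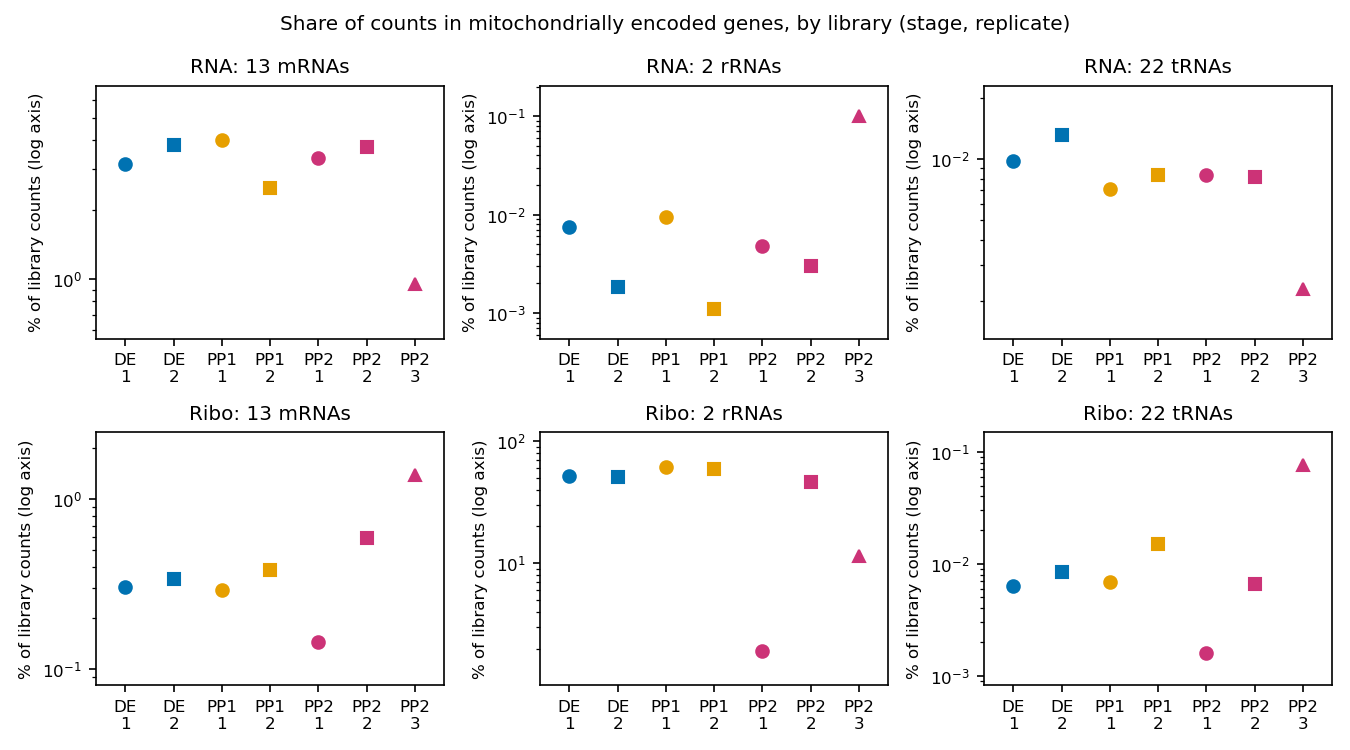
Share of all counted reads (percent, log axis) taken by mitochondrial mRNAs, rRNAs and tRNAs in each RNA and Ribo library, at DE, PP1 and PP2; each point is 1 library. In RNA, mRNAs lead in every library, and PP2 replicate 3 holds the lowest mRNA share, 0.950%, and the highest rRNA share, 0.101%. In Ribo, rRNA leads in every library and lies between 1.92% and 61.7%.

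The classes of mitochondrial RNA were recovered in opposite proportions by the assays. In RNA, the 13 mRNAs took 3.16% and 3.82% of counted reads at DE, 3.99% and 2.47% at PP1, and 3.34%, 3.74% and 0.950% at PP2. The rRNAs gave only 1264 and 277 reads at DE, 1535 and 231 at PP1, and 832, 559 and 21211 at PP2, in libraries from which rRNA had been depleted. The PP2 group therefore overlapped the other stages in mRNA, and its replicate 3 held both the lowest mRNA share and the highest rRNA count of the 7.

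In Ribo, by contrast, rRNA dominated, as the plot of class shares shows. The 2 rRNAs took 51.2% and 50.6% of Ribo reads at DE, 61.7% and 59.2% at PP1, and 1.92%, 46.6% and 11.4% at PP2. The mRNAs took 0.302% and 0.339% at DE, 0.294% and 0.385% at PP1, and 0.144%, 0.590% and 1.38% at PP2. Both PP2 libraries with little rRNA are those rich in nuclear coding reads, but they lay at opposite ends of the mRNA shares, with replicate 1 the lowest of the 7 and replicate 3 the highest. The 95% Wilson interval of a class share was at most 0.0444 percentage points either side, for counting error only. That width was of Ribo rRNA, where it was far below the spread between libraries. This did not hold for every class: tRNAs in RNA PP2 replicates 1 and 2 took 0.00835% and 0.00814%. Their intervals of 0.000428 and 0.000412 percentage points either side overlapped.

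All 13 mRNAs and both rRNAs had enough counts for a test in each assay, but few tRNAs did: 14 of 22 in RNA and 4 of 22 in Ribo. Stages were compared per assay with edgeR's quasi-likelihood test, on counts scaled by trimmed-mean (TMM) library sizes, with Benjamini-Hochberg adjustment over all genes tested and a threshold of 0.05. The change in footprints per RNA (translational efficiency, TE) was tested as an interaction of stage and assay in 1 fit over the 14 libraries, with 17 members tested: a positive value means that footprints increased more than RNA. No mitochondrially encoded gene passed in any of the 9 comparisons.

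The background was high. In RNA, 24.3% of all tested genes were called between PP1 and DE, 18.4% between PP2 and PP1 and 33.5% between PP2 and DE, where 0 of 29 members were called each time. In Ribo the same shares were 7.53%, 5.01% and 27.6%, with 0 of 19 members called, and in TE they were 0.269%, 0.0777% and 5.68%, with 0 of 17. At an unadjusted p under 0.05 the members numbered 0, 0 and 1 in the RNA comparisons in that order, against 35.8%, 33.5% and 43.5% of all genes tested. They numbered 0, 3 and 2 in Ribo, against 22.1%, 22.9% and 41.5%, and 0, 1 and 1 in TE, against 10.2%, 10.5% and 26.6%. DESeq2's Wald test called 0 members in each RNA comparison, against 25.2%, 20.7% and 33.9% of all genes, 0, 2 and 0 in Ribo, against 11%, 10.6% and 31.1%, and 0 in each TE comparison, against 1.56%, 1.72% and 14.6%.

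The members were measured with wide errors. The median standard error of the log2 fold change over the 13 mRNAs was 0.74 between PP1 and DE in RNA, against 0.39 over all genes tested, and 0.67 against 0.35 between PP2 and DE. In Ribo it was 0.79 against 0.49 between PP2 and DE. A missed threshold thus does not show that levels were alike.

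At DE the mRNAs spanned a wide range of levels per kilobase in RNA. MT-CO1, the catalytic subunit of cytochrome c oxidase (complex IV), was the highest at 8957 ± 1214 CPM per kb (SD, n = 2). MT-CO2 followed at 4041 ± 605 and MT-ND4 at 3465 ± 400 CPM per kb, whose ranges overlapped. MT-ND3, a small membrane subunit of complex I, was the lowest at 308 ± 29.6 CPM per kb, below the range of all others. Between them came MT-ATP6 at 2706 ± 386, MT-ND1 at 2614 ± 374, MT-CO3 at 2478 ± 499.9, MT-CYB at 1918 ± 225, MT-ND2 at 1522 ± 141, MT-ND5 at 1418 ± 169, MT-ND4L at 1186 ± 55.6, MT-ND6 at 852 ± 128 and MT-ATP8 at 849.8 ± 129.7 CPM per kb. The neighbours whose ranges overlapped were MT-CO2 and MT-ND4, MT-ATP6 and MT-ND1, MT-ND1 and MT-CO3, MT-ND2 and MT-ND5, and MT-ND6 and MT-ATP8. Reads per kilobase thus differed widely between genes of shared precursors. MT-ATP6 and MT-ATP8 lie on the same RNA, as do MT-ND4 and MT-ND4L. Gaps of this kind can therefore arise without a difference in RNA level.

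By stage mean, MT-CO1 stayed first and MT-ND3 last at PP1 and PP2 too, though at PP2 MT-ATP8 lay above MT-ND3 in only 2 of 3 libraries. MT-CO1 averaged 7126 ± 645 CPM per kb at PP1 (n = 2) and 6254 ± 2574 at PP2 (n = 3). MT-ND3 averaged 555 ± 490 CPM per kb at PP1 and 266 ± 103 at PP2. Between them, neighbours in the order overlapped in range at both stages, apart from MT-CO1 over MT-ND4 and MT-ND4L over MT-ND3 at PP1.

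**Figure D2:**
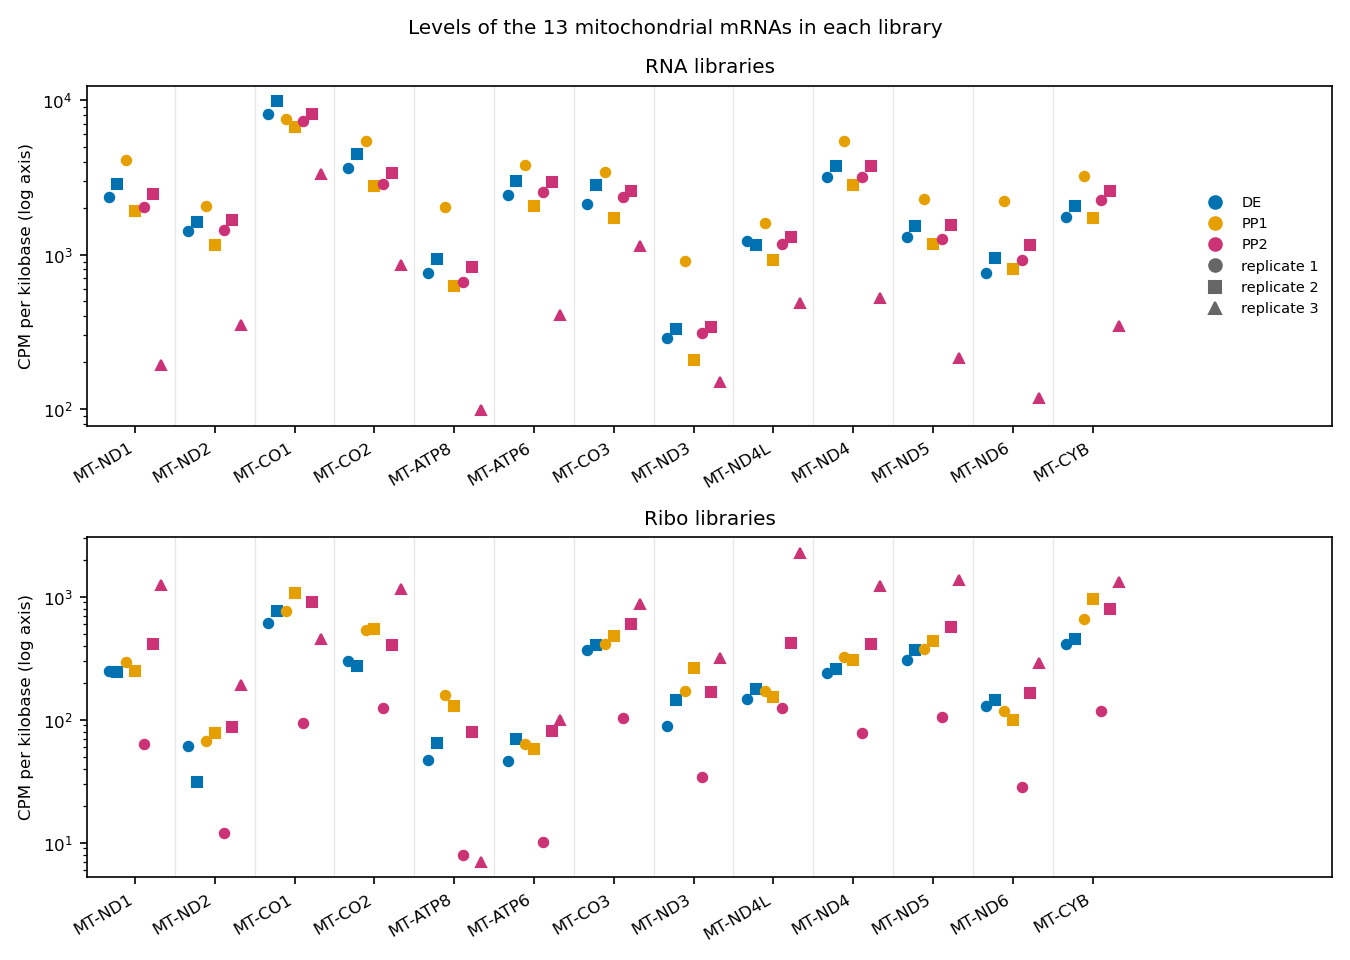
Level (CPM per kilobase, log axis) of each of the 13 mitochondrial mRNAs in every RNA and Ribo library at DE, PP1 and PP2; each point is 1 library. MT-CO1 is the highest RNA in every library, and PP2 replicate 3 lies below the other PP2 RNA libraries for all 13.

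MT-CO1 RNA was at 12488 and 15135 CPM at DE, 11692 and 10285 at PP1, and 11236, 12569 and 5127 at PP2. Both PP1 libraries lay below both DE libraries, while PP2 overlapped each of the others. The log2 change was -0.33 ± 0.41 (SE) for PP1 over DE, with an adjusted p of 0.616 in edgeR, and -0.52 ± 0.37 for PP2 over DE, adjusted p 0.318 (-0.21 without PP2 replicate 3, adjusted p 0.103). MT-CO2, which binds cytochrome c, was at 2471 and 3057 CPM at DE, 3739 and 1893 at PP1, and 1963, 2319 and 586 at PP2. All 3 PP2 libraries lay below both DE libraries, with a log2 change of -0.77 ± 0.53 (adjusted p 0.301, edgeR), or -0.36 without PP2 replicate 3 (adjusted p 0.117). MT-CO3, the remaining mitochondrial subunit of complex IV, overlapped across stages at 1666 and 2220 CPM at DE, 2675 and 1353 at PP1, and 1844, 2023 and 884 at PP2.

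The complex I subunits overlapped between all stages in RNA. MT-ND1, a membrane subunit of complex I next to its ubiquinone site, was at 2246 and 2752 CPM at DE, 3920 and 1838 at PP1, and 1945, 2343 and 183 at PP2. MT-ND4, a proton-pumping subunit, was at 4385 and 5164 CPM at DE, 7480 and 3908 at PP1, and 4404, 5137 and 721 at PP2. In both, PP1 held the highest library and PP2 the lowest, and the remaining 5 libraries lay between 1838 and 2752 CPM for MT-ND1. MT-ND3 was at 99.3 and 114 CPM at DE, 312 and 72.1 at PP1, and 107, 118 and 51.5 at PP2. The 2 PP1 libraries of MT-ND3 lay on either side of DE, with a log2 change of 0.85 ± 0.62 for PP1 over DE (adjusted p 0.374, edgeR). MT-ND5 was at 2354 and 2786 CPM at DE, 4137 and 2118 at PP1, and 2276, 2797 and 389 at PP2, and MT-ND2 at 1482 and 1689 at DE, 2138 and 1196 at PP1, and 1498, 1741 and 361 at PP2. MT-ND4L varied least of the complex I subunits over the 7 RNA libraries, at 364 and 341 CPM at DE, 474 and 275 at PP1, and 346, 388 and 144 at PP2.

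MT-ND6 is the only protein gene read from the light-strand transcript. It was at 399.7 and 495 CPM in RNA at DE, 1169 and 425 at PP1, and 485, 608 and 62.1 at PP2. PP1 replicate 1 was the highest and PP2 replicate 3 the lowest, as for its heavy-strand partners apart from MT-CO1, whose highest library was at DE. The log2 change was 0.83 ± 0.87 for PP1 over DE (adjusted p 0.544, edgeR). Per kilobase, MT-ND6 over MT-ND5, its neighbour on the opposite strand, was 0.586 and 0.613 at DE, 0.976 and 0.692 at PP1, and 0.736, 0.750 and 0.551 at PP2, so DE and PP1 did not overlap in this ratio and PP2 overlapped both. Whether the reads were counted by strand is not given in the sources used here, so reads of antisense transcripts cannot be told apart from MT-ND6.

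MT-CYB and the ATP synthase subunits were also highest in PP1 replicate 1 and lowest in PP2 replicate 3. MT-CYB, the cytochrome b of complex III, was at 2008 and 2370 CPM at DE, 3683 and 1960 at PP1, and 2580, 2933 and 395 at PP2. MT-ATP6, part of the proton channel of ATP synthase, was at 1657 and 2029 CPM at DE, 2585 and 1398 at PP1, and 1719, 2006 and 276 at PP2. Groups overlapped in both. MT-ATP8, encoded on the same bicistronic RNA, was at 157 and 195 CPM at DE, 423 and 130.2 at PP1, and 137, 171 and 20.2 at PP2, and its change of -1.34 ± 0.76 for PP2 over PP1 was the largest drop among the 13 in that comparison (adjusted p 0.258, edgeR).

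In RNA the fitted signs of the 13 mRNAs were alike within each comparison, apart from MT-CO1 in PP1 over DE. These RNAs come from few precursors and from the same libraries, so they are not independent. The median log2 change in RNA was 0.20 for PP1 over DE (12 of 13 above 0), -0.74 for PP2 over PP1 (0 of 13 above 0) and -0.47 for PP2 over DE (0 of 13), while the medians over all genes tested were 0.01, 0.01 and 0.05. Single libraries set some of these signs. Without RNA PP1 replicate 1 the median for PP1 over DE was -0.40 and without replicate 2 it was 0.65. Without RNA PP2 replicate 3 the median for PP2 over DE was 0.0058, and that for PP2 over PP1 was -0.25.

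Without that library the residual spread was also smaller, and a few members passed. Of the 24105 genes tested then, 49.8% were called between PP1 and DE, 41.4% between PP2 and PP1 and 52.5% between PP2 and DE, against 6, 1 and 2 of the 29 members, a smaller share in each. For PP1 over DE the mRNAs among these were MT-CO1 (-0.33 ± 0.10, adjusted p 0.0129), MT-ND3 (0.84 ± 0.34, 0.0489) and MT-ND6 (0.83 ± 0.26, 0.0109). For PP2 over PP1 MT-ATP8 was the one called (-0.84 ± 0.29, adjusted p 0.0265, edgeR). In PP1 replicate 1, MT-ND3 and MT-ND6 were 4.33-fold and 2.75-fold above replicate 2. Over all settings tried, the adjusted p ranged from 0.00499 to 0.872 for MT-CO1, 0.0130 to 0.650 for MT-ND3 and 0.0105 to 0.981 for MT-ND6 in PP1 over DE, and from 9.9e-07 to 0.910 for MT-ATP8 in PP2 over PP1. The 9.9e-07 came from the edgeR fit with no filter on low counts, where its standard error was 0.24, against 0.76 with the filter.

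**Figure D3:**
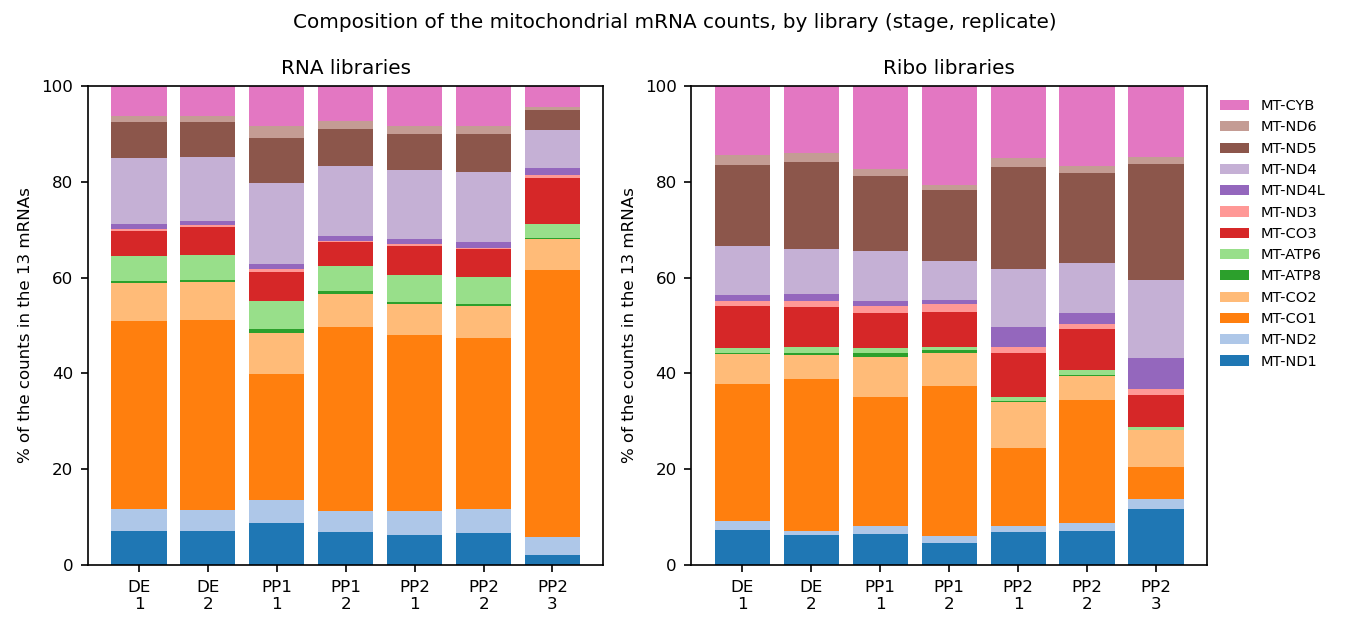
Composition of the mitochondrial mRNA reads: percent of the summed counts of the 13 mRNAs taken by each gene, in each RNA and Ribo library at DE, PP1 and PP2. MT-CO1 takes the largest share of RNA in every library, 26.3% to 55.7%, and its Ribo share lies between 6.87% in PP2 replicate 3 and 31.8% in DE replicate 2.

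Expressed as a share of the 13 mRNAs, a measure that total mitochondrial RNA does not move, MT-CO1 took 39.3% and 39.5% of RNA reads at DE, 26.3% and 38.3% at PP1, and 36.8%, 35.8% and 55.7% at PP2. All but 2 libraries thus lay between 35.8% and 39.5%. PP1 replicate 1 and PP2 replicate 3, which were at the extremes of total mitochondrial mRNA, were at the opposite extremes of the MT-CO1 share. In that PP2 library the fold against its companions varied from 0.0855 for MT-ND1 to 0.458 for MT-ND3, so the mRNAs were not scaled evenly.

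Footprints on the mRNAs gave another order. In Ribo at DE, MT-CO1 was again first at 689 ± 116 CPM per kb (SD, n = 2), followed by MT-CYB at 436 ± 28.3 and MT-CO3 at 387 ± 21.7 CPM per kb. The first 2 lay above the next gene in range, while MT-CO3 overlapped MT-ND5. MT-ATP6, the fourth in RNA, was at 57.5 ± 16.5 CPM per kb, and MT-ND2 was last at 46.3 ± 21.7. At PP1 MT-CO1 at 915 ± 214 and MT-CYB at 810 ± 209 overlapped. At PP2 all neighbours overlapped, MT-ND4L came first at 940 ± 1166 CPM per kb (n = 3) and MT-CO1 was the eighth at 487 ± 409.

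In Ribo libraries MT-CO1 was at 936 and 1189 CPM at DE, 1178 and 1645 at PP1, and 144, 1403 and 704 at PP2. MT-CYB was at 474 and 520 CPM at DE, 756 and 1093 at PP1, and 134, 915 and 1518 at PP2. For MT-CYB both PP1 libraries lay above both DE libraries, and PP2 spanned the others. MT-ND5, the largest mitochondrial subunit of complex I, was at 552 and 675 CPM at DE, 686 and 786 at PP1, and 189, 1033 and 2475 at PP2. MT-CO2 was at 205 and 188 CPM at DE, 366 and 374 at PP1, and 85.3, 278 and 785 at PP2. The PP1 values of MT-ND5 and MT-CO2 lay above all DE values, with log2 changes of 0.26 ± 0.88 for MT-ND5 (adjusted p 0.895) and 0.91 ± 0.77 for MT-CO2 (adjusted p 0.536, edgeR).

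MT-CO3, MT-ND1, MT-ND2, MT-ND3 and MT-ND6 had the same order of PP2 libraries as MT-CYB, with replicate 1 the lowest and replicate 3 the highest. MT-CO3 footprints were at 291 and 315 CPM at DE, 324 and 377 at PP1, and 80.5, 472 and 684 at PP2. MT-ND1 footprints were at 237 and 232 CPM at DE, 284 and 239 at PP1, and 60.4, 396 and 1202 at PP2. PP2 replicate 1 lay below all DE and PP1 libraries in both, and replicates 2 and 3 above them. MT-ND2 was at 64.2 and 32.2 CPM at DE, 69.4 and 80.7 at PP1, and 12.5, 90.9 and 201 at PP2, and MT-ND3 at 31.0 and 49.6 at DE, 58.9 and 91.7 at PP1, and 11.8, 57.9 and 110.4 at PP2. MT-ND6 differed in PP1, where 61.9 and 52.3 CPM lay below the 68.3 and 75.9 CPM of DE, and PP2 held 14.8, 86.5 and 151 CPM. Its change of -0.34 ± 0.74 for PP1 over DE did not pass (adjusted p 0.837, edgeR).

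Taken by ranges alone, 14 of the 19 members tested in Ribo did not overlap between PP1 and DE, 12 of them higher at PP1, including 9 mRNAs, while MT-ND6 and MT-TE were lower. The share of all tested genes whose ranges did not overlap was 60.9% there, 42.7% between PP2 and PP1 and 56.9% between PP2 and DE. In the last of these comparisons 2 of 19 members did not overlap, and 3 of 19 between PP2 and PP1, all lower at PP2. In RNA 6 of 29 members did not overlap between PP1 and DE, 3 between PP2 and PP1 and 6 between PP2 and DE, all lower at the later stage, against 72.3%, 52.4% and 60.2% of all genes tested.

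The Ribo median over the 13 mRNAs was 0.35 for PP1 over DE, 0.23 for PP2 over PP1 and 0.78 for PP2 over DE. PP2 replicate 1 had a median of 0.171 of the level of replicate 2, and replicate 3 a median of 1.91 of it, so the PP2 mean depended on the libraries counted. Without PP2 replicate 3 the median was -0.42 for PP2 over PP1 and -0.12 for PP2 over DE, and without replicate 1 it was 0.72 and 1.30 for the same comparisons. With PP2 represented by replicate 2 alone, a fit in which the lone library is assumed to vary like the others, 17.8% of all genes were called between PP1 and DE, 4.54% between PP2 and PP1 and 14.2% between PP2 and DE. It called 6, 2 and 5 of the members. Between PP1 and DE these included MT-CO2 (log2 change 0.96), MT-CYB (0.94), MT-ND3 (0.95) and MT-ATP8 (1.41). Between PP2 and DE they were MT-ND4L (1.43 ± 0.30, adjusted p 0.00232, edgeR), MT-CYB (0.93), MT-ND1 (0.81), MT-ND5 (0.80) and MT-ND4 (0.79), all higher at PP2. Over all settings the adjusted p for MT-ND4L in PP2 over DE ranged from 1.8e-05, in the edgeR fit with no filter on low counts, to 0.524.

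The members of the bicistronic RNAs, which were singled out after their values were seen, differed from each other. MT-ND4L and MT-ND4 are translated from 1 RNA, as are MT-ATP8 and MT-ATP6, and in each pair the reading frames overlap. MT-ND4L footprints were at 44.0 and 52.3 CPM at DE, 50.9 and 45.9 at PP1, and 36.7, 125 and 676 at PP2. The log2 change was 2.54 ± 0.95 for PP2 over DE and 2.53 ± 0.95 for PP2 over PP1, the largest of the 13 in both comparisons, with adjusted p of 0.0677 and 0.143 (edgeR). Without PP2 replicate 3 both were 0.74 (adjusted p 0.359 and 0.539), and without PP2 replicate 1 they were 3.07 and 3.06 (adjusted p 0.00493 and 0.0199, edgeR). With PP2 replicate 2 alone the MT-ND4L change for PP2 over PP1 was 1.37. The adjusted p of this comparison ranged over all settings from 6.7e-05, in the edgeR fit with no filter on low counts, to 0.762. MT-ND4 footprints were at 331 and 353 CPM at DE, 450.1 and 421 at PP1, and 108, 571 and 1673 at PP2, with a log2 change of 1.2 ± 0.85 for PP2 over DE (adjusted p 0.308, edgeR). That change was -0.02 without PP2 replicate 3 (adjusted p 0.990) and 1.72 without PP2 replicate 1 (adjusted p 0.0405, edgeR).

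The ratio of MT-ND4L to MT-ND4 per kilobase removes the level of their shared RNA, but not unevenness of the counts along it. In Ribo it was 0.616 and 0.687 at DE, 0.524 and 0.506 at PP1, and 1.58, 1.02 and 1.87 at PP2. All 3 PP2 libraries, including those that stood apart in rRNA, lay above all 4 earlier ones, with means of 0.651 ± 0.0506 at DE (SD, n = 2), 0.515 ± 0.0131 at PP1 (n = 2) and 1.49 ± 0.436 at PP2 (n = 3). In RNA the ratio was 0.385 and 0.306 at DE, 0.294 and 0.327 at PP1, and 0.365, 0.351 and 0.927 at PP2, so the RNA ratio of the first 2 PP2 libraries lay within the range of the other stages. That of PP2 replicate 3 lay above every other RNA library, and its number also had the highest Ribo ratio. For that number the ratio was thus not raised in footprints alone. No test is given for a ratio chosen in this way, and 3 libraries against 2 could reach an exact two-sided permutation p of 0.2 at the least.

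**Figure D4:**
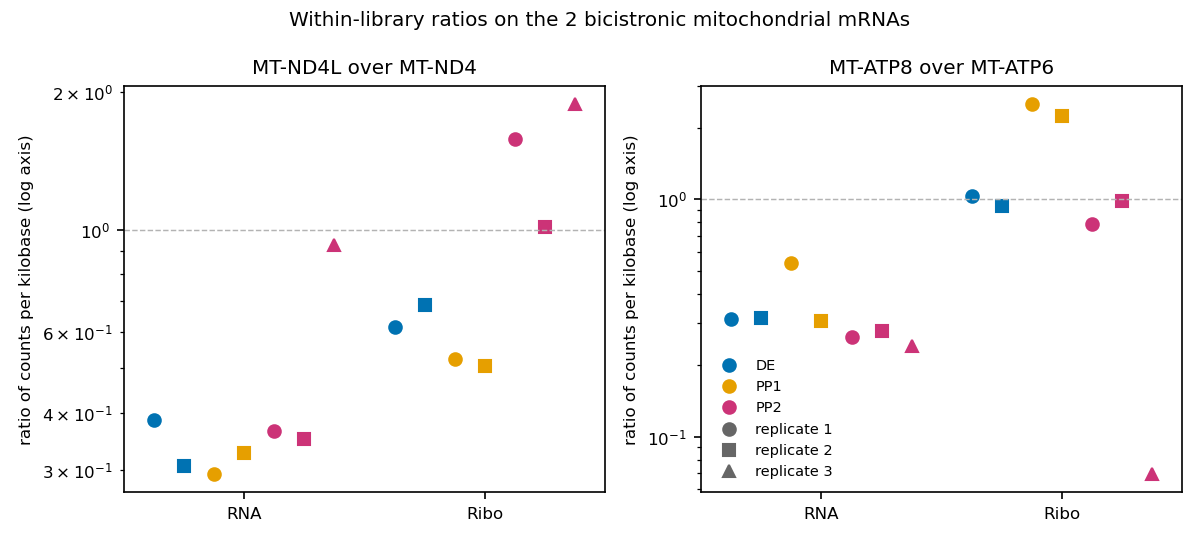
Ratio per kilobase (log axis) of MT-ND4L to MT-ND4 and of MT-ATP8 to MT-ATP6, the pairs carried on bicistronic RNAs, in each RNA and Ribo library at DE, PP1 and PP2. In Ribo, the 3 PP2 libraries of MT-ND4L over MT-ND4 lie between 1.02 and 1.87, above all DE and PP1 libraries, and the 2 PP1 libraries of MT-ATP8 over MT-ATP6 lie at 2.51 and 2.24, above all others.

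The ATP synthase pair was highest at PP1 instead. MT-ATP8 footprints were at 9.8 and 13.4 CPM at DE, 32.8 and 26.7 at PP1, and 1.7, 16.6 and 1.4 at PP2. MT-ATP6 footprints were at 31.2 and 47.1 CPM at DE, 43.0 and 39.2 at PP1, and 6.9, 55.3 and 68.3 at PP2. MT-ATP8 was above every other library at PP1, while MT-ATP6 was not, and the MT-ATP8 change was 1.36 ± 0.95 for PP1 over DE (adjusted p 0.440) and -2.24 ± 0.85 for PP2 over PP1 (adjusted p 0.148, edgeR), the last -0.84 with PP2 replicate 2 alone (adjusted p 0.387). Their Ribo ratio per kilobase was 1.03 and 0.936 at DE, 2.51 and 2.24 at PP1, and 0.783, 0.986 and 0.0696 at PP2. In RNA it was 0.312 and 0.316 at DE, 0.538 and 0.306 at PP1, and 0.262, 0.280 and 0.242 at PP2, where only the first PP1 library was raised. How reads in the overlap of the frames were assigned is not given in the sources used here.

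Footprints per RNA were lower for most mitochondrial mRNAs than for the typical nuclear gene. As log2 footprints over RNA at stage means, relative to the median of 9547 to 9631 nuclear protein-coding genes, the members' median was -2.01 at DE, -1.64 at PP1 and -1.03 at PP2. MT-ATP6 was the lowest at each stage, at -4.15, -4.27 and -3.89, and at most 1.01% of the nuclear genes lay below it at any stage. MT-ND3 was the highest at DE and PP1, where it sat at the nuclear median with 0.0026 and -0.03. MT-ND4L, at -1.47 in DE and -1.63 in PP1, was the highest at PP2 with 0.98. The recovery of mitochondrial against cytosolic ribosomes in these libraries is not known from the sources used here, so the offset from nuclear genes is a description of the libraries.

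**Figure D5:**
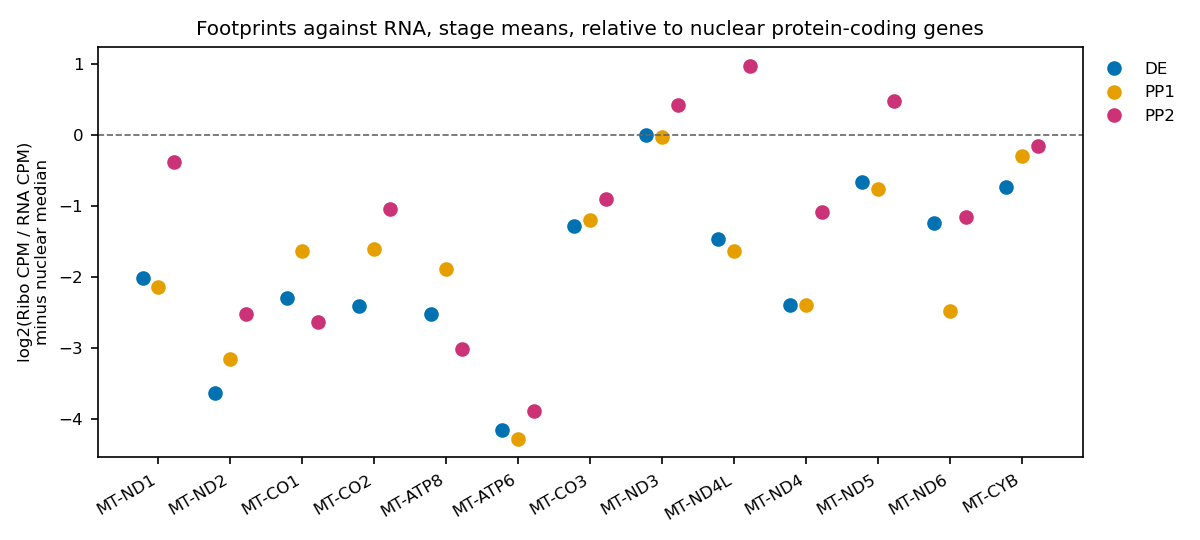
Log2 footprints over RNA of the 13 mitochondrial mRNAs at DE, PP1 and PP2, from stage means and relative to the median nuclear protein-coding gene of the same stage (0 on the axis). MT-ATP6 is the lowest at each stage, between -4.27 and -3.89, and MT-ND4L stands at -1.47 at DE, -1.63 at PP1 and 0.98 at PP2.

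The same ratios differed strongly between libraries of 1 stage, when RNA and Ribo libraries with the same number are set beside each other, though the numbers do not show that they come from the same culture. The median over the 13, relative to the nuclear median of the same pair, was -1.81 and -2.18 at DE, -2.02 and -1.25 at PP1, and -4.02, -1.65 and 2.25 at PP2. The PP2 libraries covered a wider range than the DE and PP1 libraries together, and that range exceeds the differences between the stage values. In the interaction fit the median TE change of the 13 was 0.15 for PP1 over DE, 0.69 for PP2 over PP1 and 0.83 for PP2 over DE, and the lowest adjusted p was 0.143, for MT-ND4L in PP2 over DE (2.7 ± 1.12, edgeR). The medians of PP2 over PP1 and PP2 over DE were 0.29 and 0.39 without RNA PP2 replicate 3, -0.12 and 0.20 without Ribo PP2 replicate 3, and 1.16 and 1.34 without Ribo PP2 replicate 1. The MT-ND4L change for PP2 over DE was 2.36, 0.95 and 3.21 in these fits (adjusted p 0.196, 0.450 and 0.0443, edgeR).

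Among complex IV subunits the footprints per RNA of MT-CO2 lay at -2.41 in DE, -1.60 in PP1 and -1.03 in PP2 relative to nuclear genes, MT-CO3 at -1.28, -1.20 and -0.89, and MT-CO1 at -2.30, -1.64 and -2.63. MT-CYB was closer to the nuclear median at -0.73, -0.29 and -0.15. For MT-CO1 the TE change between PP2 and DE was -0.08 ± 1.01 (adjusted p 0.975), and for MT-CO2 it was 1.63 ± 1.0 (adjusted p 0.311, edgeR), or 0.60 without Ribo PP2 replicate 3 (adjusted p 0.706). MT-CO1 and MT-CO2 thus lay close together at DE and PP1 and apart at PP2, with MT-CO3 above both at each stage. These stage values carry no error, and the changes of the subunits could not be separated at this spread.

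The rRNAs are the structural RNAs of the mitochondrial ribosome, MT-RNR1 of the small and MT-RNR2 of the large subunit. In RNA libraries MT-RNR2 was at 40.9 and 9.8 CPM at DE, 66.1 and 7.3 at PP1, and 23.0, 16.9 and 589 at PP2, and MT-RNR1 at 34.1 and 8.6 at DE, 39.1 and 4.7 at PP1, and 20.4, 11.6 and 389 at PP2. The first library of DE and of PP1 exceeded the second in both, and PP2 replicate 3 exceeded all. The log2 changes of 3.05 ± 1.69 for MT-RNR2 and 2.71 ± 1.59 for MT-RNR1 between PP2 and DE (adjusted p 0.206 and 0.231, edgeR) had wide errors, and the levels of the other PP2 libraries lay within the range of DE. Without PP2 replicate 3 they were -0.35 and -0.42 (adjusted p 0.650 and 0.561, edgeR). As rRNA was removed from these libraries, the counts describe what escaped removal, not the rRNA content of the cells.

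In Ribo libraries MT-RNR2 exceeded MT-RNR1. MT-RNR2 was at 541176 and 542371 CPM at DE, 901837 and 788976 at PP1, and 10124, 415995 and 81588 at PP2, scaled to the TMM library size, which differs from the read total. MT-RNR1 was at 13707 and 15318 CPM at DE, 13173 and 21141 at PP1, and 1670, 18144 and 2793 at PP2. MT-RNR2 was higher in both PP1 libraries than in both DE libraries and lower in all 3 PP2 libraries than in any earlier one, while MT-RNR1 overlapped between stages. The MT-RNR2 change of -2.32 ± 2.69 for PP2 over PP1 had an adjusted p of 0.659 (edgeR). With PP2 replicate 2 alone it was -1.02 ± 0.13 (adjusted p 5.8e-05, edgeR), the lowest p of all settings for this change, with 0.883 the highest.

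Per kilobase, MT-RNR2 over MT-RNR1 lay between 0.690 and 1.04 in the RNA libraries. In Ribo it was 24.2 and 21.7 at DE, 41.9 and 22.8 at PP1, and 3.71, 14.03 and 17.9 at PP2. All PP2 libraries lay below all earlier ones. The rRNA fragments of Ribo libraries thus came mostly from 1 of the 2 rRNAs in every library, to a degree that differed between libraries. How rRNA fragments were treated before Ribo sequencing is not given in the sources used here.

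The tRNAs gave few reads, 481 to 1972 per RNA library. Those encoded on the light strand, 8 of the 22, held 67.8% to 88.8% of the tRNA reads in RNA. MT-TC, which carries cysteine, led in 6 of the 7 RNA libraries with 43.1% to 55.4% of the tRNA reads. In PP2 replicate 3 MT-TP, which carries proline, led with 74.2%. Mature tRNAs are short and modified, and the counts may include unprocessed precursor: that was not tested. 8 tRNAs did not reach the filter in RNA and had at most 10 reads in a library.

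MT-TN, the asparagine tRNA next to MT-TC on the light strand, had the lowest adjusted p of all members in RNA. It had 184 and 240 reads at DE, 69 and 134 at PP1, and 82, 77 and 3 at PP2. All PP1 libraries lay below all DE libraries, and after scaling all PP2 libraries lay below all PP1 libraries, at 10.9 and 15.9 CPM at DE, 4.7 and 7.0 at PP1, and 4.3, 3.9 and 0.138 at PP2. The log2 change for PP2 over DE was -2.28 ± 0.81 (adjusted p 0.0624, edgeR). Without PP2 replicate 3 MT-TN fell by 1.70 ± 0.23 for PP2 over DE (adjusted p 3.2e-06, edgeR) and by 1.2 ± 0.22 for PP1 over DE (adjusted p 0.000186). Over all settings the adjusted p ranged from 3.7e-12 to 0.255 for PP2 over DE and from 0.00015 to 0.701 for PP1 over DE. The 3.7e-12 came from the edgeR fit with no filter on low counts, where the standard error of this change was 0.31, against 0.81 above. That fit also gave MT-RNR2, whose RNA change rests on PP2 replicate 3, an adjusted p of 2.9e-26 for PP2 over DE. Its low p-values are therefore weak evidence.

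MT-TC followed the same order. It had 46.9 and 72.6 CPM at DE, 41.1 and 44.1 at PP1, and 32.9, 33.4 and 2.8 at PP2, with no overlap between stages. Its log2 change for PP2 over DE was -1.38 ± 0.76 (adjusted p 0.203, edgeR), and without PP2 replicate 3 it fell by 0.84 ± 0.15 (adjusted p 6.6e-05), within a range of 3.2e-07 to 0.536 over all settings. The 3.2e-07 again came from the edgeR fit with no filter on low counts. The reads of MT-TC per read of MT-TN were 4.29 and 4.55 at DE, 8.68 and 6.33 at PP1, and 7.70, 8.51 and 20.3 at PP2, so MT-TN lay lower relative to its neighbour in each later library. MT-TK, the lysine tRNA between MT-CO2 and MT-ATP8, had 28 and 39 reads at DE, 4 and 19 at PP1, and 15, 32 and 2 at PP2, and fell by 1.66 ± 0.54 for PP1 over DE in the same fit without PP2 replicate 3 (adjusted p 0.0149, edgeR, with 0.00746 to 0.626 over all settings).

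In Ribo libraries MT-TL2, a leucine tRNA, held 87.1% to 96.5% of the tRNA reads in 6 libraries. It had 365 and 480 reads at DE, 330 and 684 at PP1, and 364, 446 and 288 at PP2, or 64.7 and 86.9 CPM at DE, 88.8 and 199 at PP1, and 9.2, 57.7 and 20.8 at PP2. Every PP2 value lay below every earlier value, and every PP1 value above DE. The log2 change was -2.31 ± 0.63 for PP2 over PP1 (adjusted p 0.0609) and -1.39 ± 0.63 for PP2 over DE (adjusted p 0.119, edgeR). With PP2 replicate 2 alone they were -1.31 and -0.34 (adjusted p 0.0691 and 0.633), and without that library -3.25 and -2.33 (adjusted p 0.000502 and 0.00135, edgeR). Its read count stayed of the same order in all libraries, and the scaled level was lowest in the 2 PP2 libraries rich in nuclear coding reads.

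PP2 replicate 3 differed in its Ribo tRNAs. MT-TS2, a serine tRNA, had 5952 reads there, 75.5% of its tRNA reads, against 2 and 4 in the other PP2 libraries and 0 in the 4 libraries of DE and PP1. Of the 12 tRNAs with no read in the other 6 Ribo libraries, 8 had at least 1 there. MT-TT had 562 reads, MT-TP 482, MT-TL1 267, MT-TF 121 and MT-TH 103 in it. The 18 tRNAs that did not reach the filter in Ribo, MT-TS2 among them, had at most 9 reads in each of the other 6 libraries.

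Nuclear copies of mitochondrial DNA took few reads beside the members. Of 407 symbols of such copies, 13 reached 10 CPM in a stage. The reads of all 407 together came to 0.184% to 0.916% of the reads of the members. MTATP6P1, the copy of MT-ATP6, had 1277 and 1292 reads in RNA at DE, 4417 and 1182 at PP1, and 1343, 1622 and 92 at PP2, with PP1 replicate 1 the highest and PP2 replicate 3 the lowest. Whether reads shared with these copies were counted for a copy, a member or neither is not given in the sources used here.

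The nuclear genes that act on or with the mitochondrial RNAs were described by 8 lists holding 160 distinct genes. They were chosen with earlier results of these data known. In RNA, 7 of the lists had a smaller share of genes called than the background of all genes in each comparison, and the list of biogenesis regulators and mass markers, with 5 of 16 called for PP1 over DE, 5 for PP2 over PP1 and 6 for PP2 over DE, had a larger one. Of 20 genes of mitochondrial transcription and DNA maintenance, 1 rose and 0 fell between PP2 and DE in RNA, TK2, the mitochondrial thymidine kinase, by 1.09 ± 0.33 (adjusted p 0.0349, edgeR). POLRMT, the mitochondrial RNA polymerase, was at 44.2 ± 2.17 CPM in PP2 and 53.2 ± 2.34 in DE, a log2 change of -0.27 ± 0.16 (adjusted p 0.227). TFAM, which packages mitochondrial DNA and starts transcription, was at 76.9 ± 8.50 CPM in PP2 and 55.3 ± 6.18 in DE in RNA (0.48 ± 0.19, adjusted p 0.0846), and its footprints rose by 1.37 ± 0.40 (adjusted p 0.0292, edgeR), a call lost without Ribo PP2 replicate 1 (1.01, adjusted p 0.0659) or replicate 3 (1.47, adjusted p 0.0568). Without RNA PP2 replicate 3 its RNA change was 0.39 (adjusted p 0.00589). MTERF2, a member of the mitochondrial terminator family, fell by 1.13 ± 0.21 in RNA between PP1 and DE (adjusted p 0.00616) and was the 1 gene of its list called in that comparison.

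Of 32 genes of mitochondrial RNA processing and stability, 3 rose and 1 fell between PP2 and DE in RNA. GRSF1, an RNA granule protein that binds light-strand transcripts, fell by 0.80 ± 0.24 (adjusted p 0.0361), and FASTKD3 rose by 0.99 ± 0.24, PNPT1, the mitochondrial polynucleotide phosphorylase, by 0.69 ± 0.23 and TRNT1, which adds CCA to tRNAs, by 0.65 ± 0.18. Between PP1 and DE 2 rose and 2 fell, TRMT10C, a subunit of mitochondrial RNase P, by 0.86 ± 0.23 (adjusted p 0.0268, edgeR). LRPPRC and SLIRP, which together stabilise mitochondrial mRNAs, did not pass in any comparison: in RNA between PP2 and DE their log2 changes were 0.14 ± 0.18 (adjusted p 0.574) and -0.31 ± 0.23 (adjusted p 0.341, edgeR). In Ribo between PP2 and DE, 3 of 30 rose and 1 fell, against 27.6% of all tested genes called in either direction. Those that rose included PNPT1 by 2.04 ± 0.41 and FASTKD2 by 1.42 ± 0.41, while FASTK fell by 1.47 ± 0.48. With PP2 replicate 2 alone PNPT1 was at 1.61 (adjusted p 0.0120), FASTKD2 at 0.82 (adjusted p 0.311) and FASTK at -0.61 (adjusted p 0.379, edgeR).

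Among 18 translation factors of mitochondria, 1 rose and 1 fell between PP2 and DE in RNA, MRRF, the ribosome recycling factor, by 0.78 ± 0.21 and GFM2 by 0.88 ± 0.27. Of 37 nuclear complex I subunits, NDUFA5 rose by 1.28 ± 0.26 and NDUFB10 fell by 1.21 ± 0.18, of 9 of complex III UQCRC1 and CYC1 fell by 1.26 ± 0.27 and 0.98 ± 0.21, of 11 of complex IV COX7C rose by 1.14 ± 0.37, and of 18 of complex V ATP5F1D and ATP5MC3 fell by 0.95 ± 0.25 and 0.64 ± 0.19. In the list of 16 biogenesis regulators and mitochondrial mass markers 6 fell, among them the outer membrane proteins VDAC2 by 1.56 ± 0.17 and TOMM20 by 1.36 ± 0.18 (adjusted p 0.000254 and 0.000704, edgeR). All 18 list genes selected for naming and called in RNA between PP2 and DE also passed, in the same direction, without PP2 replicate 3. COX7C moved most among those given here, to 0.65. The calls in Ribo were less stable. Of 15 list genes selected in the same way and called there between PP2 and DE, 7 also passed without PP2 replicate 1 and 4 without PP2 replicate 3.

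The nuclear subunits did not follow the mitochondrial mRNAs in the library that stood apart. The summed RNA level of the complex I list was 1301 CPM in PP2 replicate 3, against 794 and 799 CPM in its companions, that of complex IV was 949 against 468 and 466 CPM, and that of complex V was 2010 against 1091 and 1125 CPM. MALAT1, an abundant nuclear long noncoding RNA, took 0.511% of its reads, against 1.53% and 1.42% of those of its companions. The part of these differences in the mitochondrial values was not tested.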

How the data were processed

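The authors deposited raw read counts per gene symbol for each library, with a gene length in bases, per the file headers. Per the submitters' processing notes, the tools named were cutadapt 1.18, Bowtie 1.2, STAR 2.7.1a and featureCounts 1.6.4 with build hg38; strand, multi-mapping and overlap settings and the annotation release are not given in the sources used here. No sequence or coordinate is printed.

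Counts were scaled with TMM per assay and expressed as CPM, and per kilobase with the deposited length. Genes were kept by filterByExpr and tested with edgeR 4.0.16 (R 4.3.3) in quasi-likelihood fits over the 7 libraries of an assay, or all 14 for TE, with Benjamini-Hochberg adjustment. Limma 3.58.1 and DESeq2 1.42.0 served as alternatives, beside other scalings, filters, a replicate block and fits with libraries left out. The script was tested on simulated data. Replicate numbers were read as names. Named genes are all members and, from each list and comparison, at most the 4 called genes with the largest change and a mean of at least 10 CPM, plus POLRMT, TFAM, LRPPRC, SLIRP and GRSF1. Members and lists were chosen with earlier results of these data known. All 14 count columns were matched to a library by name.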

Additional observations from a re-analysis of the deposited data

How the results depend on the processing

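No member passed in the 9 comparisons as reported, but the count of members called depended on the setting; counts below are for PP1 over DE, PP2 over PP1 and PP2 over DE. With no filter on low counts it was 4, 11 and 10 of 37 in RNA, against 17%, 15% and 23.1% of all genes, 0, 6 and 7 of 33 in Ribo, against 4.03%, 5.04% and 14.6%, and 3 of 33 for PP2 over DE in TE, against 6.87%. With limma voom and quality weights it was 2, 0 and 2 of 29 in RNA, against 44.5%, 39.0% and 52.8%, 1, 7 and 9 of 19 in Ribo, against 20.2%, 27.7% and 45.8%, and 0, 2 and 2 of 17 in TE, against 2.97%, 13.1% and 29.2%, and with DESeq2's Wald test 2 for PP2 over PP1 in Ribo, against 10.6%. Fitting only the stages compared gave 6 of 29 in RNA, against 50.7%, and 5 of 17 in Ribo, against 22.9%, for PP1 over DE. Leaving out Ribo PP2 replicates 1 and 3 together gave 6, 2 and 5 of 19 in Ribo, against 17.8%, 4.54% and 14.2%. Leaving out 1 library at a time gave 0 to 6, 0 to 1 and 0 to 2 in RNA, 0 to 1, 0 to 6 and 0 to 5 in Ribo, and 0 to 1 for PP2 over DE in TE; the upper ends came without RNA PP2 replicate 3 (49.8%, 41.4% and 52.5% of all genes) and without Ribo PP2 replicate 1 (11%, 4.53% and 23.8%) or 2 (15.1%, 23.6% and 46.4%). DESeq2 size factors, TMM over nuclear genes and a mean of 50 counts called 0 members throughout. The fit with no filter gave smaller standard errors in RNA, such as 0.28 against 1.69 for MT-RNR2 in PP2 over DE, a change that rests on PP2 replicate 3.

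With a replicate block the members called were 5, 1 and 2 of 29 in RNA, against 47.6%, 39.7% and 50.7% of all genes, and 0 in each Ribo and TE comparison, and the Ribo median of the 13 mRNAs turned to -0.78 for PP2 over PP1 and -0.36 for PP2 over DE. In the RNA and Ribo fits the block gives PP2 replicate 3, the only library of its assay with that number, a term of its own. That library then does not bear on the stage changes. These fits are thus near to those without it: MT-TN RNA changed by -1.68 with the block and -1.70 without that library for PP2 over DE. Deviations from the stage mean had correlations of -0.31 to 0.24 between same-numbered libraries of 1 assay. Differently numbered libraries were not set beside them, so these values cannot decide whether the numbers pair the libraries.

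The medians of the 13 mRNAs changed sign as single libraries were left out: -0.40 to 0.65 in RNA for PP1 over DE, -0.76 to 0.0058 in RNA for PP2 over DE, -0.42 to 0.72 in Ribo for PP2 over PP1, -0.12 to 1.30 in Ribo for PP2 over DE, -0.25 to 0.79 in TE for PP1 over DE and -0.12 to 1.16 in TE for PP2 over PP1. The cause was not tested. Of protein-coding and mitochondrial reads alone, Ribo mRNAs took 0.381% at DE, and Ribo rRNAs 60.5% at DE and 67.69% at PP1. With overlapping genes and MT-ND6 left out, MT-CO1 took 50.3% and 42.9% of mRNA reads in RNA at DE and PP1, and 35.4% and 33.4% in Ribo.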
